A study of Mus musculus with 6 samples.

Results

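The 10 genes described here are the regulators of mitochondrial gene expression built around the PGC-1 coactivators and the estrogen-related receptors (ERRs). They were chosen by name, and all 10 were found among the 20632 genes of the deposited table. They are the PGC-1 coactivators (*Ppargc1a*, *Ppargc1b*, *Pprc1*), the receptors (*Esrra*, *Esrrb*, *Esrrg*), the nuclear respiratory factors (*Nrf1*, *Gabpa*), the mitochondrial transcription factor (*Tfam*) and the opposing corepressor (*Nrip1*). RNA of unexercised male C57BL/6 mice aged 3 months was sequenced from all hind limb muscles together (quadriceps, gastrocnemius, soleus, tibialis anterior and extensor digitorum longus), with 3 Baf155 WT mice, 3 Baf155 ΔMF mice and 1 library per mouse. Mice of both genotypes carried floxed *Baf155* alleles, and Baf155 ΔMF mice also carried *MCK*-Cre, a transgene driven by the muscle creatine kinase promoter. Baf155 is a core subunit of the SWI/SNF chromatin remodeling complex. *MCK*-Cre is also active in cardiac muscle, and it is not expected to act in the other cells of the hind limb, such as endothelial cells and leukocytes.

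PGC-1 coactivators do not bind DNA themselves. They dock on ERRs and nuclear respiratory factors at genes for oxidative phosphorylation, fatty acid oxidation and mitochondrial DNA maintenance, and in muscle their activity rises with exercise and is high in slow, oxidative myofibers. RIP140, the product of *Nrip1*, sits on many of the same receptors and represses the same genes.

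The total per mouse was between 10601293 and 12469335 counts in Baf155 WT mice and between 8426022 and 10003421 counts in Baf155 ΔMF mice. Expression is given as CPM, read counts scaled to a common library size with TMM factors, and 3 counts, the smallest number taken as a signal, equaled 0.23 to 0.351 CPM. *Smarcc1*, the gene of Baf155, was measured at 23.4, 19.5 and 17.0 CPM in Baf155 WT mice and at 7.05, 6.54 and 7.72 CPM in Baf155 ΔMF mice (log2 fold change -1.49, standard error 0.15, adjusted p = 0.00907 in edgeR's quasi-likelihood test with Benjamini-Hochberg adjustment). It passed 0.05 in 13 of 16 alternatives, and the adjusted p was 0.0616 without the first MS15 Baf155 WT mouse and 0.0533 and 0.0678 without the first or second MS13 Baf155 ΔMF mouse. The sample titles start with MS13, MS14 or MS15, prefixes that the labels do not explain. Throughout, the values of Baf155 WT mice are given in the order MS13, MS15, MS15, and those of Baf155 ΔMF mice in the order MS13, MS13, MS14. Only MS13 holds both genotypes, so in the other mice prefix and genotype cannot be told apart.

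Whether the loss of Baf155 went with altered transcript levels of these regulators in resting muscle was asked gene by gene. All 10 genes passed the filter on low counts. None had an adjusted p under 0.05 in edgeR's quasi-likelihood test with Benjamini-Hochberg adjustment, a limit that 3 of the 12116 genes tested passed (0.0248%). At an unadjusted p under 0.05 there was 1 of the 10 genes, *Esrrg*, which was higher in Baf155 ΔMF muscle, against 7.95% of all genes in either direction and 3.35% in this direction. The genotypes did not overlap in 1 of the 10 genes, *Nrf1*, against 10.8% of all genes (5.57% with Baf155 ΔMF below and 5.2% with Baf155 ΔMF above). Log2 fold changes lay above 0 in 8 genes and below 0 in 2, between -0.11 and 0.46, with a median of 0.14 beside -0.00095 over all genes tested. Without the MS13 Baf155 WT mouse the counts changed, and *Ppargc1a* and *Esrrg* had adjusted p-values under 0.05, in a fit where 955 genes did (7.77%). With that mouse left out no prefix holds both genotypes. Prefix and genotype therefore cannot be told apart in that fit, here or where it is cited below.

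**Figure D1:**
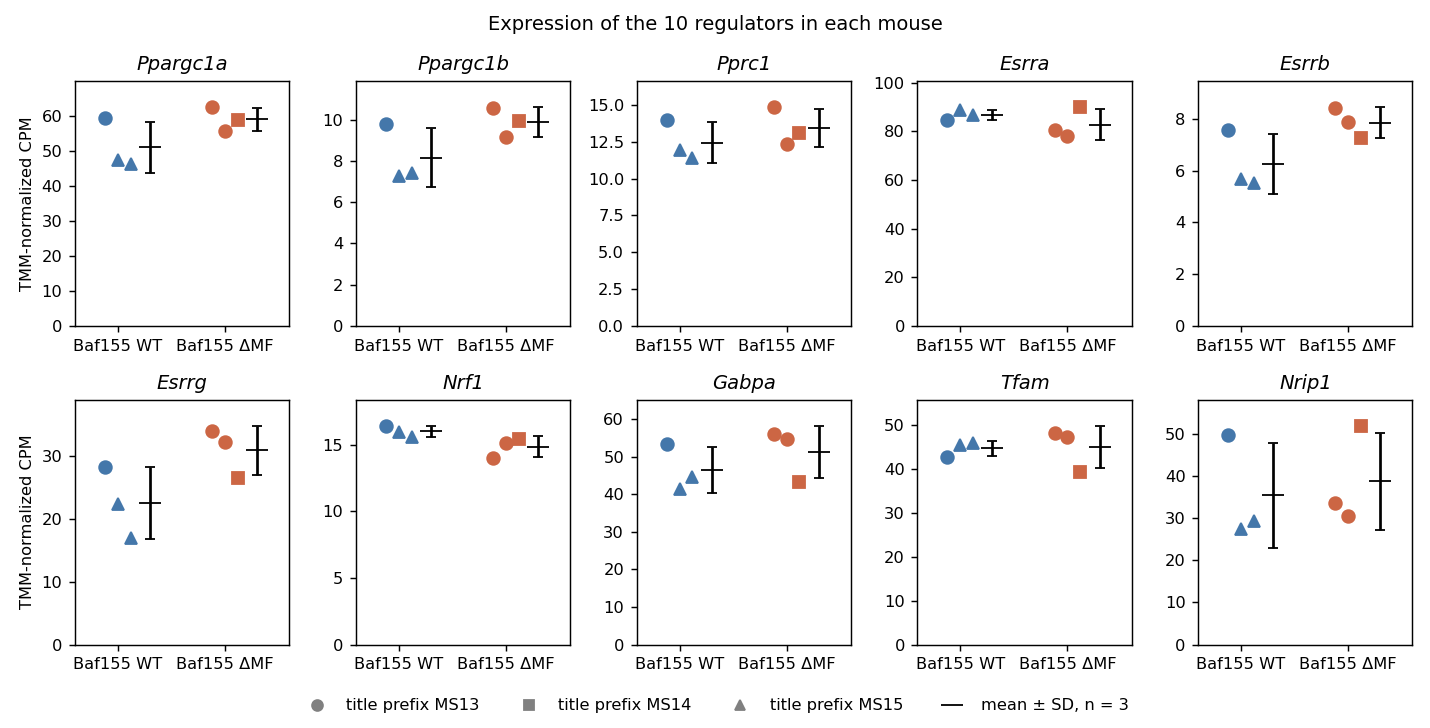
TMM-normalized CPM (y axis, from 0) of each of the 10 regulators in each mouse, with Baf155 WT in blue, Baf155 ΔMF in orange, the title prefix as marker shape, and the mean ± SD of 3 mice beside each group. In 8 of the 10 genes the MS13 Baf155 WT mouse was the highest of the Baf155 WT mice, and only *Nrf1* shows no overlap between genotypes.

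*Ppargc1a* encodes PGC-1α, the exercise-responsive coactivator that drives mitochondrial biogenesis in muscle. The gene lies on the minus strand of chromosome 5 from 51454250 to 51567726 (GENCODE M21, build GRCm38, which holds for all gene positions here). The 250 bases before its RefSeq start (GRCm38.p6, chr5:51567726-51567975, minus strand) are shown as its promoter window. GENCODE M21 lists 5 transcripts of the gene, and starts other than this one were not searched. Capitals mark the CREB core (TGACG, read on the opposite strand) that overlaps a HIF core (ACGTG, also on the opposite strand).
Ppargc1a: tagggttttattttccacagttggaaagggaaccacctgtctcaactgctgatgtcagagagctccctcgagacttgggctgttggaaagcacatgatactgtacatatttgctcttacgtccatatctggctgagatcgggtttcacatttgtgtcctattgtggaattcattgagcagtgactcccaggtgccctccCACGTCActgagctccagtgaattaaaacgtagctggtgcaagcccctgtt
The measured levels of *Ppargc1a* were 59.4, 47.4 and 46.0 CPM in Baf155 WT muscle and 62.4, 55.7 and 58.7 CPM in Baf155 ΔMF muscle. The MS13 Baf155 WT mouse stood among the Baf155 ΔMF mice, and the MS15 mice lay below all of them. The means were 50.9 ± 7.34 and 58.9 ± 3.36 CPM (SD, n = 3). The log2 fold change was 0.21 (standard error, SE, 0.11; 95% confidence interval -0.03 to 0.46), with adjusted p = 0.627 in edgeR's quasi-likelihood test with Benjamini-Hochberg adjustment. Among the MS13 mice alone the difference was -0.0088 on the log2 scale, with no test. Without the MS13 Baf155 WT mouse it was 0.34 with adjusted p = 0.0417 in the same test. That comparison sets MS15 mice against MS13 and MS14 mice, so prefix and genotype cannot be told apart in it.

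*Ppargc1b* encodes PGC-1β, the close relative of PGC-1α that is linked to the basal oxidative program. It lies on the minus strand of chromosome 18 from 61298136 to 61400431, and the annotation places *Mir378a* inside it on the same strand. Its expression was 9.81, 7.27 and 7.41 CPM in Baf155 WT mice and 10.6, 9.14 and 9.94 CPM in Baf155 ΔMF mice. The pattern over the mice was that of *Ppargc1a*, with the MS13 Baf155 WT mouse inside the Baf155 ΔMF range and the MS15 mice below it. On the log2 scale Baf155 ΔMF muscle was 0.28 higher (SE 0.16, adjusted p = 0.633 by edgeR's quasi-likelihood test), a value that was 0.0059 among the MS13 mice.

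*Pprc1* encodes PRC, the third and growth-responsive member of the coactivator family. It lies on chromosome 19 from 46044886 to 46072915 and overlaps *Ldb1* on the opposite strand. Levels were 13.99, 11.9 and 11.4 CPM in Baf155 WT mice and 14.8, 12.4 and 13.1 CPM in Baf155 ΔMF mice, and the groups overlapped through the MS13 Baf155 WT mouse. This gave a difference of 0.11 on the log2 scale (SE 0.13, adjusted p = 0.812 by edgeR's quasi-likelihood test), and one of -0.04 among the MS13 mice.

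Per kilobase of exon length, *Ppargc1a* made up between 65.4% and 66.5% of the summed level of the 3 coactivators in every mouse. This share stayed within that range while the level of *Ppargc1a* itself ran from 46.0 to 62.4 CPM. This share was computed after the values were seen.

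*Esrra* encodes ERRα, the receptor most closely tied to PGC-1α in the control of respiratory genes. It lies on the minus strand of chromosome 19 from 6910977 to 6921813 and overlaps *Trmt112* on the opposite strand. Its values were 84.7, 88.8 and 86.8 CPM in Baf155 WT mice and 80.4, 78.0 and 89.9 CPM in Baf155 ΔMF mice. Unlike the coactivators, the MS13 Baf155 WT mouse was the lowest of its genotype. The lowest and the highest of the 6 mice were both Baf155 ΔMF. Between genotypes *Esrra* differed by -0.07 on the log2 scale (95% confidence interval -0.26 to 0.13, adjusted p = 0.829 by edgeR's quasi-likelihood test).

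*Esrrg* encodes ERRγ, a receptor enriched in oxidative, well vascularized muscle that is active without a ligand. It spans chromosome 1 from 187608791 to 188214885. Expression was 28.4, 22.5 and 17.0 CPM in Baf155 WT mice and 34.1, 32.3 and 26.5 CPM in Baf155 ΔMF mice. The 2 MS13 Baf155 ΔMF mice were above every Baf155 WT mouse, whereas the MS14 mouse was below the MS13 Baf155 WT mouse. The means were 22.6 ± 5.71 and 31.0 ± 3.93 CPM (SD, n = 3), which is 1.37-fold (95% confidence interval 1.06 to 1.78). The log2 fold change of 0.46 (standard error 0.17) was the largest of the 10 genes, with unadjusted p = 0.0207 and adjusted p = 0.601 in edgeR's quasi-likelihood test with Benjamini-Hochberg adjustment. It was 0.23 among the MS13 mice. Without the MS13 Baf155 WT mouse it was 0.65 with adjusted p = 0.0128 in the same test, where again no prefix holds both genotypes.

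*Esrrb* encodes ERRβ, best known from pluripotent cells and also present in slow muscle. It lies on chromosome 12 from 86361117 to 86521628. Levels were low, at 7.58, 5.66 and 5.53 CPM in Baf155 WT mice and 8.44, 7.89 and 7.25 CPM in Baf155 ΔMF mice. Again the MS13 Baf155 WT mouse lay within the Baf155 ΔMF range and the MS15 mice under it. *Esrrb* had a log2 fold change of 0.34 (SE 0.17, adjusted p = 0.622 by edgeR's quasi-likelihood test), and of 0.11 among the MS13 mice.

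Per kilobase, ERRα took 81.0% ± 3.85 of the summed ERR level in Baf155 WT muscle and 74.9% ± 3.46 in Baf155 ΔMF muscle (SD, n = 3). ERRγ took 14.8% ± 3.27 and 19.9% ± 2.97. The ratio of *Esrrg* to *Esrra* per kilobase was 0.237, 0.179 and 0.138 in Baf155 WT mice and 0.299, 0.293 and 0.209 in Baf155 ΔMF mice. Both MS13 Baf155 ΔMF mice had the highest ratios, and the MS14 mouse fell within the Baf155 WT range. The two-sided exact permutation test over the 20 assignments of mice gave p = 0.2, where the smallest value it can give is 0.1. These shares and this ratio were also chosen after the values were seen.

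*Nrf1*, nuclear respiratory factor 1, activates genes of the respiratory chain and of mitochondrial DNA transcription, and it is a different gene from the stress factor *Nfe2l1*, which shares the short name. It lies on chromosome 6 from 30047988 to 30153458. Its values were 16.4, 16.0 and 15.6 CPM in Baf155 WT mice and 13.99, 15.2 and 15.4 CPM in Baf155 ΔMF mice. Every Baf155 ΔMF mouse was below every Baf155 WT mouse, an arrangement found in 5.57% of all genes tested, and the nearest values of the genotypes were 15.6 and 15.4 CPM. This difference of -0.11 on the log2 scale was within its error (SE 0.11, adjusted p = 0.777 by edgeR's quasi-likelihood test), and it was -0.17 among the MS13 mice.

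*Gabpa* encodes the DNA-binding subunit of nuclear respiratory factor 2, an ETS protein. It lies on chromosome 16 from 84834925 to 84863779 and shares its start region with *Atp5j* on the opposite strand. Expression was 53.3, 41.5 and 44.5 CPM in Baf155 WT mice and 56.0, 54.6 and 43.4 CPM in Baf155 ΔMF mice. The 3 MS13 mice were the highest whatever their genotype, and the genotypes overlapped. Its log2 fold change was 0.15 (SE 0.13, adjusted p = 0.735 by edgeR's quasi-likelihood test). *Gabpa* was the 1 gene of the 10 whose deposited counts were not all whole numbers.

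*Tfam* encodes the factor that packages mitochondrial DNA and starts its transcription. It lies on the minus strand of chromosome 10 from 71225464 to 71238280. Levels were 42.8, 45.4 and 46.0 CPM in Baf155 WT mice and 48.3, 47.3 and 39.4 CPM in Baf155 ΔMF mice, so the Baf155 ΔMF mice held both the highest and the lowest values. The means differed by 0.0089 on the log2 scale (95% confidence interval -0.21 to 0.23, adjusted p = 0.981 by edgeR's quasi-likelihood test). Its sign depended on the scaling, with -0.058 when only library size was used.

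*Nrip1* encodes RIP140, the corepressor that opposes PGC-1 at nuclear receptors in muscle and fat. It lies on the minus strand of chromosome 16 from 76287400 to 76373827. Its expression was 49.9, 27.4 and 29.3 CPM in Baf155 WT mice and 33.7, 30.6 and 52.0 CPM in Baf155 ΔMF mice. One mouse of each genotype was far above the rest, the MS13 mouse in Baf155 WT and the MS14 mouse in Baf155 ΔMF. With all mice *Nrip1* had a log2 fold change of 0.13 and the widest standard error of the 10 genes (0.24, adjusted p = 0.886 by edgeR's quasi-likelihood test). Among the MS13 mice it was -0.63. In a fit that included the prefix, the genotype difference comes from the MS13 mice, 1 Baf155 WT against 2 Baf155 ΔMF. The log2 fold change there was again -0.63, and with 1 Baf155 WT mouse it says nothing of the spread among Baf155 WT mice. Without the MS14 Baf155 ΔMF mouse the log2 fold change was -0.13, and without the MS13 Baf155 WT mouse 0.45. The direction of *Nrip1* therefore differed with the mice compared. Per kilobase, the ratio of *Nrip1* to *Ppargc1a* was 0.484, 0.333 and 0.366 in Baf155 WT mice and 0.311, 0.317 and 0.51 in Baf155 ΔMF mice, and the two-sided exact permutation test gave p = 0.8.

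**Figure D2:**
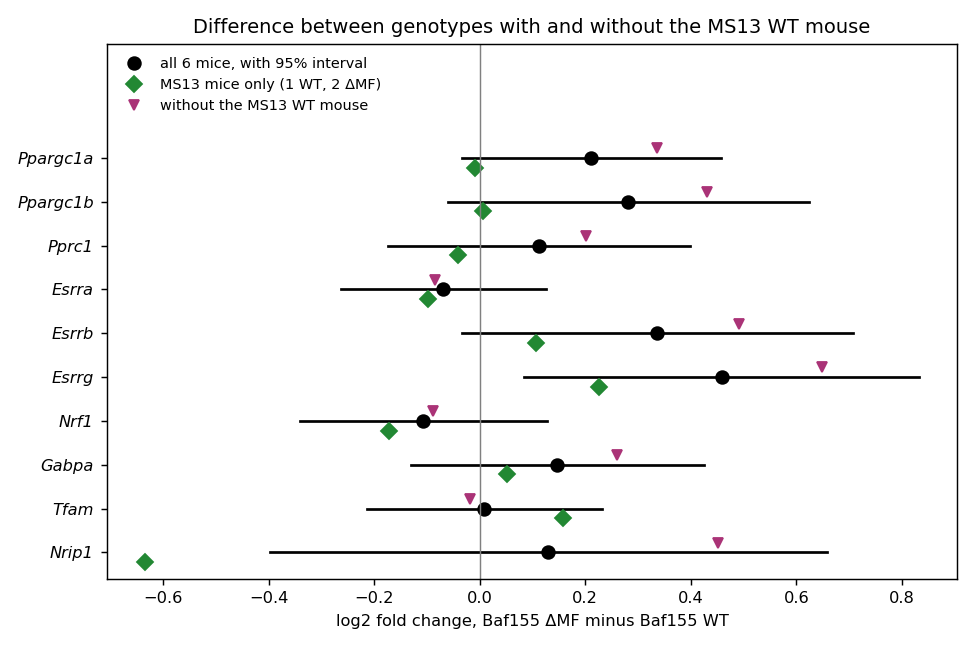
Log2 fold change of each regulator (x axis, Baf155 ΔMF minus Baf155 WT) over all 6 mice with its 95% confidence interval (black), among the MS13 mice alone (green, no interval) and without the MS13 Baf155 WT mouse (purple). For *Ppargc1a* the values were 0.21, -0.0088 and 0.34, and for *Nrip1* 0.13, -0.63 and 0.45. In the purple comparison no prefix holds both genotypes.

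The place of the MS13 Baf155 WT mouse was a common feature of the 10 genes. It had the highest Baf155 WT value in 8 of them. The exceptions were *Esrra* and *Tfam*. Its median log2 difference from the MS15 Baf155 WT mice was 0.33 over the 10 genes and -0.01 over all genes tested. The fold of the MS13 mouse over the mean of the MS15 mice was 1.27 for *Ppargc1a*, 1.34 for *Ppargc1b*, 1.44 for *Esrrg* and 1.76 for *Nrip1*. Leaving that mouse out gave 6 of the 10 genes an unadjusted p under 0.05 in edgeR's quasi-likelihood test, against 23.8% of all genes in that fit. Besides *Ppargc1a* and *Esrrg* these were *Ppargc1b* (log2 fold change 0.43), *Esrrb* (0.49), *Gabpa* (0.26) and *Nrip1* (0.45), with adjusted p-values between 0.0923 and 0.184. No prefix held both genotypes in that fit, so prefix and genotype cannot be told apart in it. No gene of the 10 had an unadjusted p under 0.05 without the second MS15 Baf155 WT mouse or without either of the MS13 Baf155 ΔMF mice. Within MS13 the median log2 fold change of the 10 genes was -0.0014. What the prefixes stand for, and their part in these differences, was not tested.

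Levels can be set beside each other only per length, and they are given here as CPM per kilobase of summed exon length over the 6 mice. *Esrra* was the highest at 19.3 ± 1.08 (SD), with no overlap with any other gene. *Tfam* (10.1 ± 0.734), *Gabpa* (8.60 ± 1.13) and *Ppargc1a* (8.33 ± 1.02) followed, and their ranges over the mice overlapped. *Esrrg* (4.31 ± 1.02) was below *Ppargc1a* in every mouse. Its range overlapped that of *Nrip1* (3.24 ± 0.954), which overlapped that of *Ppargc1b* (2.26 ± 0.347), and the last overlapped that of *Pprc1* (2.06 ± 0.206). *Nrf1* (1.501 ± 0.0812) and *Esrrb* (1.17 ± 0.198) were the lowest and overlapped each other. The place of *Nrf1* depended on the length used, since its exons summed to 10282 bases but its longest transcript had 4042 bases. With the longest transcript it stood at 3.82 and moved from rank 9 to rank 7.

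**Figure D3:**
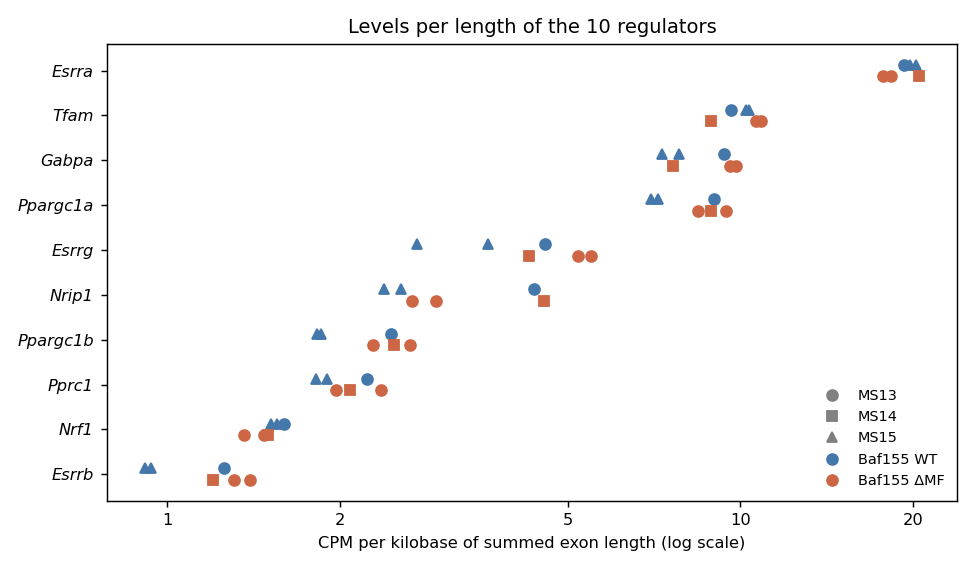
Level of each regulator in each mouse (x axis, CPM per kilobase of summed exon length, log scale), with Baf155 WT in blue, Baf155 ΔMF in orange and the title prefix as marker shape. *Esrra* lies between 17.8 and 20.5 and *Esrrb* between 0.915 and 1.39, and *Tfam*, *Gabpa* and *Ppargc1a* overlap.

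Promoter windows of 300 bases (250 before and 50 after each RefSeq start, GRCm38.p6) were found for 9 of the 10 genes, with 15 windows in all. They were searched on both strands for sites of the factors in this pathway. Matches are named by gene, whereas the shares beside them are of single windows. Genes with more than 1 window therefore had more room for a match. The ERR element (TNAAGGTCA) and the NRF-1 palindrome, sites of some of the PGC-1 partners, matched in none of these windows. They matched in only 1.28% and 1.27% of all 32851 promoter windows. The ETS site bound by GABPA (CCGGAAG) matched in *Tfam* and in *Gabpa* itself, against 8.86% of all windows. Of the 250 bases before these RefSeq starts, 236 at *Tfam* and 250 at *Gabpa* lay in annotated exons of either strand. A MEF2 site, the target of a muscle factor that responds to calcium signals, matched in *Esrrg* and *Nrf1*, against 3.19% of windows. A STAT site (TTCNNNGAA) matched in *Esrrb* and *Pprc1*, against 8.3%. The CREB core matched in *Ppargc1a* and *Esrrb* and the HIF core in *Ppargc1a* and *Esrrg*, against 20.8% and 19.6%. The HIF core of *Esrrg* belongs to a downstream start of that gene. These letter matches are descriptions and not measured binding. The matches to the longer sites are shown with 8 bases on each side and the match in capitals because these letters belong to factors of the pathway or of muscle and cytokine signaling, with GRCm38.p6 coordinates in the sentences that follow.
Tfam, ETS site: gccgcggaCCGGAAGtccgggct
Gabpa, ETS site: ggtaagtgCTTCCGGgtccctca
Esrrg, MEF2 site: aaactttgCTATTTATAGtctacgcc
Nrf1, MEF2 site: tagggtatTTATAATTAGtgattggg
Esrrb, STAT site: cggaaactTTCGTGGAAagcacttg
Pprc1, STAT site: gactacaaTTCCCAGAAatcctcga
The *Tfam* stretch is chr10:71238077-71238099 (minus strand) and the *Gabpa* stretch is chr16:84835023-84835045 (plus strand). The MEF2 stretches are chr1:187608976-187609001 at *Esrrg* and chr6:30076218-30076243 at *Nrf1*, both on the plus strand, and the second belongs to a downstream start of *Nrf1*. The *Esrrg* match lies before the RefSeq start searched but downstream of the annotated gene start at 187608791. The STAT stretches are chr12:86360931-86360955 at *Esrrb* and chr19:46056398-46056422 at *Pprc1*, both on the plus strand. The *Pprc1* stretch lies inside the gene, downstream of the annotated gene start at 46044886.

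Across the 6 mice the levels of some of these genes moved together, which is given as a description because the points share genotype, prefix and library. On log2 CPM, *Ppargc1a* had a Pearson r of 0.99 with *Ppargc1b*, 0.95 with *Esrrb*, 0.92 with *Pprc1* and 0.88 with *Esrrg* (n = 6 mice). *Esrra* did not follow them, with r = -0.42 to *Ppargc1a* and -0.89 to *Gabpa*. *Tfam* and *Nrip1* ran against each other, with r = -0.81. Outside the 10 genes, the 3 whose pattern was most like *Ppargc1a* were *Mybbp1a*, *Mef2d* and *Hk2* (r = 0.997, 0.996 and 0.996), and 219 genes had r over 0.95. *Mybbp1a* encodes a repressor of PGC-1α, *Mef2d* a MEF2 factor and *Hk2* muscle hexokinase. The 3 most like *Esrra* were *Twist1*, *Lix1l* and *Ism1* (r = 0.997, 0.993 and 0.992), with 62 genes over 0.95. With so few mice such values are common, as these counts of genes show.

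The genes that act with the regulators were then examined as lists. Of 24 PGC-1 and ERR target genes of oxidative metabolism, 0 had an adjusted p under 0.05 in edgeR's quasi-likelihood test. Their median log2 fold change was 0.04. At an unadjusted p under 0.05 in the same test, 1 was higher and 0 were lower, against 3.35% and 4.6% of all genes. The 1 higher gene was *Ucp3*, a mitochondrial carrier of muscle, at 66.0, 67.2 and 68.1 CPM in Baf155 WT mice and 76.5, 96.9 and 68.5 CPM in Baf155 ΔMF mice. The genotypes did not overlap, but the MS14 mouse was close to the Baf155 WT mice (log2 fold change 0.27, standard error 0.12, adjusted p = 0.622 in the same test). *Mb*, the oxygen-binding myoglobin gene, was at 2483 ± 279 and 2924 ± 60.3 CPM (SD, n = 3), and *Hk2* at 311 ± 91.3 and 398 ± 38.5 CPM. Among the MS13 mice the log2 differences were 0.39 for *Ucp3*, 0.05 for *Mb* and -0.08 for *Hk2*. Of 18 genes for mitochondrial DNA replication, transcription and RNA handling, 0 passed either limit and the median was -0.01. The 3 with the smallest p-values were *Peo1*, the mitochondrial helicase (log2 fold change 0.22), and the transcription factors *Tfb2m* (0.15) and *Tfb1m* (-0.25). Transcripts encoded by the mitochondrial genome were not analysed here, because none of the 15 symbols looked up for them was found in the deposited table.

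The 25 genes for inputs to PGC-1 (kinases, calcineurin, CREB and MEF2 factors, deacetylases and PGC-1 modifiers) had a median log2 fold change of 0.08. None passed an adjusted p of 0.05 in edgeR's quasi-likelihood test. At an unadjusted p under 0.05, 1 was higher and 1 lower, against 3.35% and 4.6% of all genes. The lower gene was *Rcan1*, which encodes an inhibitor of calcineurin and is itself switched on by calcineurin signaling. It was at 136, 150.3 and 138 CPM in Baf155 WT mice and at 69.0, 98.7 and 89.9 CPM in Baf155 ΔMF mice. All 3 Baf155 ΔMF mice were below all Baf155 WT mice, and the MS13 mice showed the same direction (-0.69). *Rcan1* differed by -0.72 on the log2 scale (SE 0.12, unadjusted p = 0.000129, adjusted p = 0.173). Over 16 alternatives it ranged from -0.83 to -0.58 and the adjusted p from 0.000154 to 0.542. It passed 0.05 in 3 of them, which were DESeq2 (0.000154), the fit without the filter on low counts (0.0197) and the comparison that left out the MS13 Baf155 WT mouse (0.00238). The higher gene was *Mef2c*, which encodes a MEF2 factor, at 642 ± 63.5 and 759 ± 37.0 CPM (SD, n = 3; log2 fold change 0.24, adjusted p = 0.611). *Crtc1*, a CREB coactivator, was at 7.19 ± 1.26 and 9.03 ± 0.325 CPM. Among the MS13 mice the log2 differences were 0.12 for *Mef2c* and 0.08 for *Crtc1*. Without the MS13 Baf155 WT mouse, 7 of the 25 input genes, 1 of the 24 target genes and 0 of the 18 mitochondrial DNA genes had an adjusted p under 0.05. In that fit 7.77% of all genes did.

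Of 26 nuclear receptors, coactivators and corepressors that work with PGC-1 or RIP140, 0 had an adjusted p under 0.05 in edgeR's quasi-likelihood test. Their median log2 fold change was 0.07. At an unadjusted p under 0.05 in the same test, 2 were higher and 0 lower, against 3.35% and 4.6% of all genes. *Ncor1*, a corepressor that limits ERR and PPAR targets in muscle, was at 143, 131 and 134 CPM in Baf155 WT mice and 158, 165 and 150.3 CPM in Baf155 ΔMF mice. The genotypes did not overlap (log2 fold change 0.22, standard error 0.09, adjusted p = 0.601 in the same test), and the value was 0.18 among the MS13 mice. *Nr1d1*, the clock repressor REV-ERBα, was the other higher gene (0.85, adjusted p = 0.602), at 104, 51.4 and 26.7 CPM in Baf155 WT mice and 127, 109.5 and 90.7 CPM in Baf155 ΔMF mice. *Ctbp2*, a partner of RIP140, was at 25.3 ± 0.281 and 21.7 ± 1.61 CPM (SD, n = 3) with no overlap. With the MS13 Baf155 WT mouse left out, 4 of these 26 genes had an adjusted p under 0.05, against 7.77% of all genes.

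**Figure D4:**
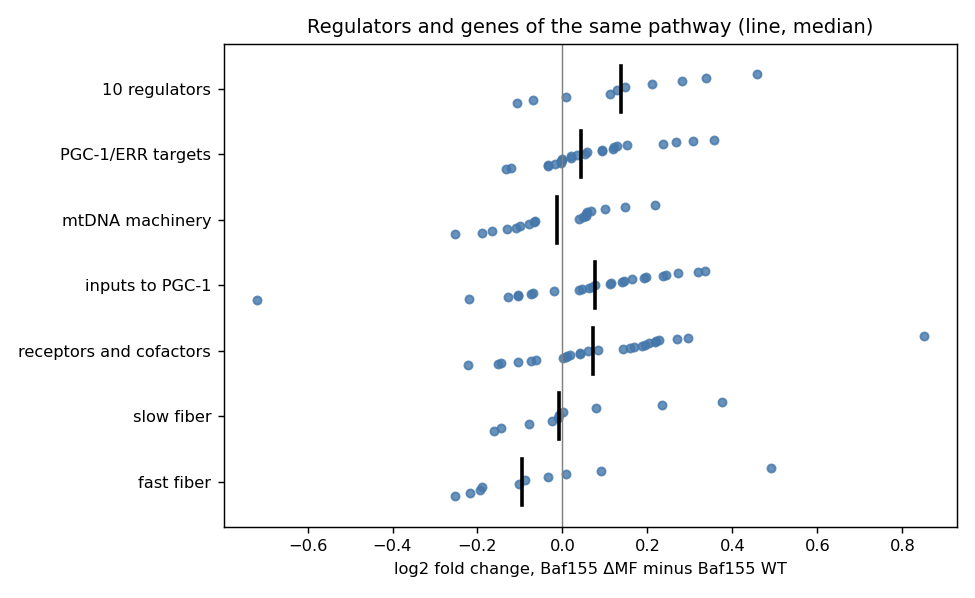
Log2 fold change (x axis, Baf155 ΔMF minus Baf155 WT) of each tested gene in the 10 regulators and in 6 lists of related genes, with 1 point per gene and the median as a vertical line. The medians lie between -0.09 (fast fiber markers) and 0.14 (the 10 regulators), and *Rcan1* stands apart at -0.72 among the inputs.

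Fiber type, muscle activity and time of day are conditions under which PGC-1 and ERR genes are known to vary, so their markers are given beside them. Of 10 slow oxidative fiber markers 1 was higher at an unadjusted p under 0.05 in edgeR's quasi-likelihood test (*Myh2*, 1762 ± 407 and 2284 ± 115 CPM, SD, n = 3). *Myh2* encodes the myosin of fast oxidative fibers, so it marks oxidative rather than slow fibers. Its log2 difference among the MS13 mice was 0.07. The median log2 fold change of the list was -0.0090. *Myh7* and *Myl2*, both of slow fibers, had values of 0.23 and -0.14. Of 10 fast glycolytic fiber markers 1 was higher (*Myh1*, 0.49, adjusted p = 0.601). Every Baf155 ΔMF mouse was above every Baf155 WT mouse for *Myh1*, an arrangement found in 5.2% of all genes tested. The log2 difference of *Myh1* among the MS13 mice was 0.29. The median of the fast list was -0.09. *Pvalb* and *Tnni2* of this list had values of -0.25 and -0.22. Of 5 general muscle markers 0 passed the limit, with values of 0.35 for *Neb*, 0.43 for *Ttn* and -0.20 for *Ckm*. Of 12 activity-induced immediate early genes 10 could be tested, and 2 were lower at an unadjusted p under 0.05, *Atf3* (21.2 ± 0.529 and 11.1 ± 1.92 CPM, adjusted p = 0.0551) and *Klf4* (-0.37, adjusted p = 0.622). *Nr4a3* was at -1.05 (adjusted p = 0.622). For *Atf3* the log2 fold change was between -1.10 and -0.86 over 16 alternatives, and the adjusted p, from 0.000483 to 0.328, was under 0.05 in 7 of them (0.000483 with DESeq2 and 0.0425 with limma-voom). Leaving out the MS13 Baf155 WT mouse gave 0.00142, and leaving out the MS14 Baf155 ΔMF mouse gave 0.0443. Of 13 core clock genes 4 were higher and 1 was lower at an unadjusted p under 0.05 with all mice in edgeR's quasi-likelihood test. The higher genes were *Dbp* (log2 fold change 1.33), *Nr1d1* (0.85, described above), *Per3* (0.74) and *Nr1d2* (0.54), and the lower gene was *Cry1* (-0.30). Their summed level was 897, 633 and 568 CPM in Baf155 WT mice and 909, 882 and 897 CPM in Baf155 ΔMF mice, so the MS13 Baf155 WT mouse again stood with the Baf155 ΔMF mice. Among all genes, 4.6% were lower and 3.35% higher at the unadjusted limit, and with all mice no gene of these 5 lists had an adjusted p under 0.05. Without the MS13 Baf155 WT mouse, where 7.77% of all genes passed, 9 of the 13 clock genes, 2 fast fiber markers, 2 general muscle markers, 1 slow fiber marker and 1 immediate early gene did. The median of the clock list was 0.16 with all mice and -0.01 among the MS13 mice. The part of clock, fiber and activity genes in the levels of the 10 regulators was not tested.

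Other cell types also contribute RNA to whole muscle, and in such samples fewer cells of a type and less RNA per cell cannot be told apart. All 6 leukocyte and macrophage markers were lower at an unadjusted p under 0.05 in edgeR's quasi-likelihood test, against 4.6% of all genes. None of the 6 had an adjusted p under 0.05 in the same test. Their summed level was 59.0, 151 and 127 CPM in Baf155 WT mice and 53.1, 52.6 and 79.6 CPM in Baf155 ΔMF mice, so that the MS15 Baf155 WT mice, which had the lowest *Ppargc1a*, had the highest leukocyte sum. Without the MS13 Baf155 WT mouse all 6 had an adjusted p under 0.05, and the median log2 fold change of the list was -0.88 with all mice and -0.14 among the MS13 mice. In the same comparison, where 7.77% of all genes passed, 4 endothelial, 3 fibroblast, 3 adipocyte, 2 erythroid and 1 smooth muscle marker did. With all mice, none of these lists had a gene with an adjusted p under 0.05 in the same test. At an unadjusted p under 0.05 with all mice, 2 of 6 endothelial markers were higher and 2 of 5 fibro-adipogenic and fibroblast markers were lower. The fibroblast list was split, with log2 fold changes below 0 in 3 genes and above 0 in 2. At the same unadjusted limit 1 of 5 smooth muscle and pericyte markers was higher and 3 of 5 tested erythroid markers were lower. Over all genes 3.35% were higher and 4.6% lower at this limit. The summed endothelial level was 298, 226 and 237 CPM in Baf155 WT mice and 299, 320.3 and 296 CPM in Baf155 ΔMF mice. Summed levels ranged from 1575 to 1954 CPM (Baf155 WT) and 1415 to 2148 CPM (Baf155 ΔMF) for the fibroblast list, from 613 to 776 and 741 to 881 CPM for the smooth muscle list, and from 622 to 1227 and 371 to 805 CPM for the erythroid list. Of 7 tested white and brown adipocyte markers 2 were lower at the unadjusted limit with all mice, and the list's sum ranged from 186 to 244 and from 195 to 209 CPM. Log2 fold changes of these tested markers lay below 0 in 6 genes and above 0 in 1. *Ucp1*, the defining brown fat gene, had no counts in any mouse, and *Cidea* did not pass the filter on low counts. None of 5 Schwann cell, 4 tested satellite cell and 2 tested cardiac muscle markers passed the unadjusted limit, and the heart genes *Tnni3*, *Nppa* and *Nppb* did not pass the filter. The 5 muscle markers of the labelled tissue summed to between 105076 and 149430 CPM in each mouse. The part of these other cells in the levels of the 10 regulators was not tested.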

How the data were processed

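Hind limb muscle RNA of 6 mice was sequenced by the authors as total RNA with a stranded TruSeq kit, and they deposited 1 estimated count per gene symbol and mouse without normalization. The submitters' processing notes name CASAVA 1.8.2, cutadapt 1.10, Bowtie2 2.2.7, TopHat2 2.1.1, RSEM 1.2.30 and limma with the builds mm10 and GRCm38, but give no role or order. Whether counting used strand is not given in the sources used here, so reads of genes that overlap on opposite strands may be shared.

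After rounding, edgeR 4.0.16 was run under R 4.3.3 (filterByExpr with a minimum count of 10 and total of 15, TMM factors from 0.958 to 1.05, quasi-likelihood F test without covariate). Benjamini-Hochberg adjustment covered the 12116 genes tested, and 95% confidence intervals come from the same fit. Each mouse gave 1 library. The depth was 8426022 to 12469335 counts, and the floor of 3 counts covers counting error only. Correlations used log2 CPM with a prior count of 2. Results were recomputed with voom (limma 3.58.1) and DESeq2 1.42.0, with other scalings and filters, with a robust fit, with a prefix term, unrounded counts and leaving out each mouse. The fits were tested on simulated data. Exon lengths and positions are from GENCODE M21, and promoters from RefSeq.

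The genes named are the 10 regulators, *Smarcc1*, up to 3 genes with the smallest p-values from each list of related genes, and the 3 genes most correlated with *Ppargc1a* and with *Esrra*. *Cry1* and *Ucp1* were named after their values were seen, and so were genes listed as not passing the filter. Lists of other cell types are given by counts and summed levels. The regulators and lists were chosen with earlier results of these data known.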

Additional observations from a re-analysis of the deposited data

How the results depend on the processing

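Across the alternatives no regulator had an adjusted p under 0.05 except when the MS13 Baf155 WT mouse was left out, and leaving out each mouse gave between 0 and 2 such regulators. At an unadjusted p under 0.05 the number ranged from 0 to 6, beside 1 with all mice. Over all genes tested, 3 had an adjusted p under 0.05 in edgeR's quasi-likelihood test, and this became 5 with limma-voom, 22 with DESeq2, 17 with nearly unfiltered genes (at least 1 count in all), 16 with a term for the prefix and between 0 and 955 when a mouse was left out. The 0 came without the first MS15 Baf155 WT mouse and without the second MS13 Baf155 ΔMF mouse, where 451 and 568 genes had an unadjusted p under 0.05, and the 955 without the MS13 Baf155 WT mouse. In that last fit no prefix held both genotypes. Signs changed for 4 regulators, of which *Ppargc1a* was called in the comparison without the MS13 Baf155 WT mouse and the others in none. With this prefix term the log2 fold change was -0.0091 for *Ppargc1a*, -0.042 for *Pprc1* and -0.63 for *Nrip1*. *Tfam* was at -0.0066 with upper-quartile scaling, at -0.058 with library size only (which put the median of all genes at -0.064) and between -0.043 and 0.098 when a mouse was left out, and *Nrip1* between -0.13 and 0.45. In each case the cause was not tested. No paired analysis was possible because the labels tie no Baf155 WT mouse to a particular Baf155 ΔMF mouse, and the number after the prefix in the titles has no stated meaning. The prefix term above groups mice and does not pair them. With 3 mice against 3, an exact permutation test cannot give p below 0.1, and the intervals of the regulators leave room for differences that were not detectable with these mice.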
